A study of Rattus norvegicus with 6 samples.

Results

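A set of 9 genes of the tyrosine kinase signaling pathway of leukocytes were followed in the ipsilateral lumbar spinal cord of rats with bone cancer pain (BCP) and of sham-operated rats. They were the rows of the gene table named Ptprc, Lyn, Fgr, Syk, Btk, Blnk, Vav1, Plcg2 and Inpp5d, each of which matched 1 row, so 9 of the 30957 genes in the table were taken. The rats were female Wistar rats, and no genetic change was part of the model. In the BCP group, living Walker 256 rat breast carcinoma cells were placed in the marrow space of the left tibia, and the sham group received heat-killed Walker 256 cells at the same site, so the surgery and the cell material were common to both groups. Total RNA of the lumbar enlargement, with the meninges removed, was sequenced after depletion of ribosomal RNA on day 14, in 3 libraries per group. The labels do not say whether each library came from 1 animal, so the p-values measure only the spread between these 6 libraries.

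These genes encode a relay that leukocytes, including the microglia of the central nervous system, use downstream of receptors for antigen, immunoglobulin and debris. Src-family kinases such as Lyn and Fgr phosphorylate tyrosine motifs (ITAMs) on a receptor or its adaptor, the kinase Syk docks there, and Syk, Btk and the scaffold Blnk bring phospholipase C gamma 2 (Plcg2) and the exchange factor Vav1 into action, which leads to calcium release and remodelling of the cytoskeleton. The phosphatase CD45, encoded by Ptprc, keeps Src-family kinases ready to fire, while the lipid phosphatase SHIP1, encoded by Inpp5d, opposes the PI3-kinase arm.

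All 9 genes were up-regulated in BCP rats. The rise was between 2.53-fold for Syk and 10.7-fold for Ptprc, and in each of the 9 genes every BCP library lay above every sham library. Up-regulation was called at an adjusted p under 0.05 (edgeR quasi-likelihood test, Benjamini-Hochberg over 14908 genes) with a log2 fold change (log2FC, BCP minus sham) over 1. Of all tested genes 6.35% were called higher by this rule, and 21.7% had every BCP library above every sham library. The median log2FC of the 9 genes was 2.32, against -0.01 over all tested genes. The 9 genes together took 0.0093% ± 0.00135 of the gene counts in sham libraries and 0.0486% ± 0.00668 in BCP libraries (SD, n = 3 each). Libraries held 13366905 to 15004290 gene counts in the sham group and 11779485 to 13764758 in the BCP group, of which 1169 to 1407 and 4864 to 7057 fell on the 9 genes. In bulk tissue, more cells of a type and more RNA per cell cannot be told apart.

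**Figure D1:**
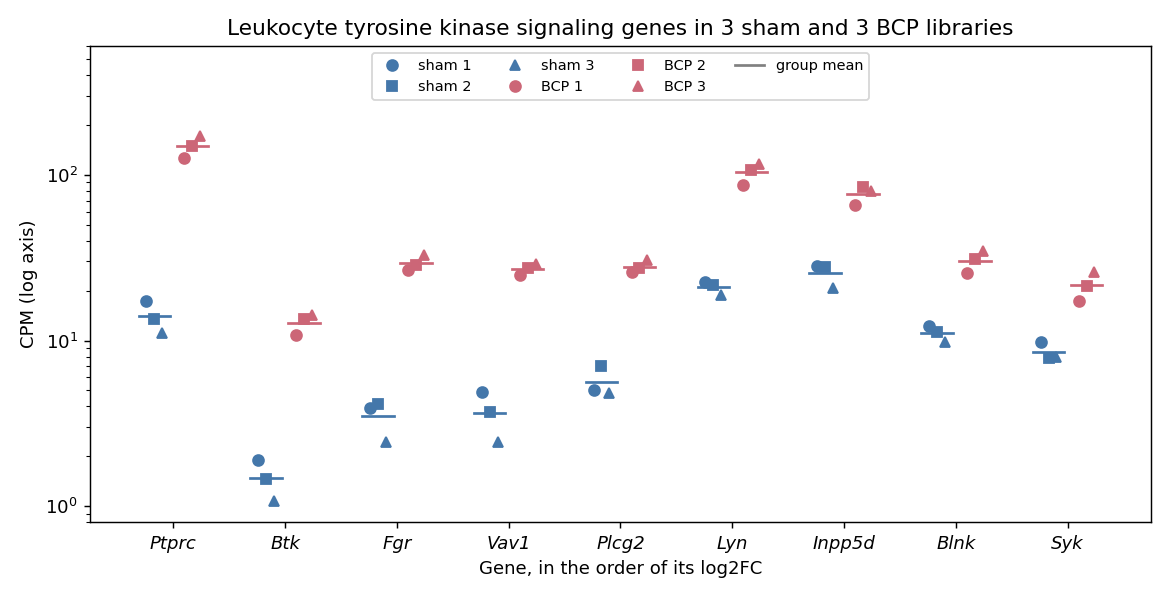
Counts scaled to a common library size (CPM, log axis) of the 9 genes in each sham library (blue) and BCP library (red), ordered by log2FC; the marker shape gives the replicate number and the horizontal line the group mean. In every gene the 3 red points lie above the 3 blue points, with the widest gap in Ptprc (14.0 to 149 CPM) and the narrowest in Syk (8.52 to 21.5 CPM).

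The promoters of 4 of the genes are shown as examples, those with the largest and the smallest rise (Ptprc and Syk) and those that hold the longer of the motifs searched (Vav1 and Inpp5d). All 4 hold the purine-rich letters GAGGAA, the core of the site bound by the myeloid transcription factor PU.1 (Spi1), whose own transcript is described further on. RefSeq promoters on the GRCr8 build, 250 bases before to 50 after the start of the gene, were matched for 8 of the 9 genes, all but Lyn. The letters were present on either strand in 6 of the 8, Ptprc, Syk, Btk, Vav1, Plcg2 and Inpp5d, and in 27.6% of the 33469 promoters in the table. The longer GAGGAAGT, which contains the shorter motif, was present in Vav1 and Inpp5d, 2 of the 8, and in 2.42% of all promoters. Shown from 170 bases before to 30 after the start of the gene, 5′ to 3′ on the gene's own strand, with GAGGAA or its reverse complement in capitals, the windows were those of Ptprc (chr13:52259717-52259916, minus strand), Vav1 (chr9:2248785-2248984, plus strand), Inpp5d (chr9:95735363-95735562, plus strand) and Syk (chr17:12813244-12813443, minus strand).
Ptprc: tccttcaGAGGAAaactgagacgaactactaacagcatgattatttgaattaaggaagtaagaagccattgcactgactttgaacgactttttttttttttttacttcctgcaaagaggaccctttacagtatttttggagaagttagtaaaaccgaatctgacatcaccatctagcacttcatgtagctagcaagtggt
Vav1: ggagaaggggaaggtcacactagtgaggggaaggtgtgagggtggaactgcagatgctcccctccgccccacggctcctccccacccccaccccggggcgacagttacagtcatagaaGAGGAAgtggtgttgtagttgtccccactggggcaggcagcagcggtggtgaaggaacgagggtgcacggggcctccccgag
Inpp5d: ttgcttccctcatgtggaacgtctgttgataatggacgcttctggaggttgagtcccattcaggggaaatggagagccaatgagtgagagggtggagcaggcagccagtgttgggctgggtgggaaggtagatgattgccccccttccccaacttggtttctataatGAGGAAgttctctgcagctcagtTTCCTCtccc
Syk: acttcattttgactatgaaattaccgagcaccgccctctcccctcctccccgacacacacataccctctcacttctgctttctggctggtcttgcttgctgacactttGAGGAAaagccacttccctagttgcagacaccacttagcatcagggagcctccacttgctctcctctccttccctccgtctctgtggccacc
The match lay at -52 to -47 from the start of Vav1, at -62 to -57 in Syk and at -163 to -158 in Ptprc, and Inpp5d had one match across the start (-3 to 3) and another at 21 to 26. Neither the interferon-stimulated response element (3.92% of all promoters) nor the letters TGACGTCA (1.829%) or AGATAA (11.58%) were found in the 8 promoters, and TATAAA (14.22%) was found in Plcg2 alone. These matches describe letters in a window and were not tested.

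Ptprc, which encodes the receptor-type phosphatase CD45 carried by nearly all nucleated blood cells and by microglia, had the largest rise. The gene spans chr13:55061562-55173692 (Rnor_6.0). Its 3 sham libraries held 17.4, 13.5 and 11.1 CPM (counts scaled to a common library size) and its 3 BCP libraries 127, 150 and 171 CPM, from 164 to 228 and 1504 to 2262 counts. The lowest BCP library was thus several times the highest sham library. The log2FC was 3.42 ± 0.21 (SE; 95% confidence interval 2.87 to 3.97; adjusted p = 0.000332, edgeR).

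The Src-family kinases Lyn and Fgr, which start the relay, both rose. Lyn (chr5:16526058-16642648), which both activates and restrains receptor signaling, held 22.5, 21.7 and 18.8 CPM in sham libraries and 87.2, 107 and 116 CPM in BCP libraries. Fgr (chr5:151172206-151199745), a kinase of myeloid cells, held 3.89, 4.12 and 2.43 CPM in sham libraries and 26.5, 28.4 and 32.7 CPM in BCP libraries. Neither gene's groups overlapped, and Fgr rose more than Lyn. The log2FC was 2.31 ± 0.11 for Lyn (adjusted p = 8.09e-08) and 3.07 ± 0.16 for Fgr (adjusted p = 2.81e-11, edgeR).

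Syk (chr17:12614311-12669573), the kinase that binds phosphorylated ITAMs, rose least. It held 9.76, 7.82 and 7.97 CPM in sham libraries and 17.3, 21.4 and 25.8 CPM in BCP libraries. The log2FC was 1.34 ± 0.15 (95% confidence interval 1.03 to 1.65; adjusted p = 1.23e-06, edgeR), so its lower bound lay close to the threshold of 1. In a test against a fold change of 2 instead of against 0, Syk was the single gene of the 9 that was no longer called (adjusted p = 0.0945, edgeR glmTreat).

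Btk (chrX:105360922-105390580), the Tec-family kinase that phosphorylates phospholipase C gamma 2, had the fewest counts of the 9 in sham libraries, 16 to 25. It held 1.91, 1.47 and 1.08 CPM in sham libraries and 10.7, 13.4 and 14.2 CPM in BCP libraries, with a log2FC of 3.12 ± 0.21 (adjusted p = 9.46e-10, edgeR). Blnk (chr1:260186967-260254600), the scaffold that Syk phosphorylates, best known from B cells and also present in macrophages, held 12.3, 11.2 and 9.80 CPM in sham libraries and 25.4, 31.0 and 34.5 CPM in BCP libraries. Its log2FC was 1.45 ± 0.12 (adjusted p = 2.68e-08, edgeR). The kinase and its scaffold therefore rose to different degrees, 8.67-fold and 2.74-fold.

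Both effectors of the relay rose. Vav1 (chr9:9617786-9675110), a blood-cell exchange factor for Rac GTPases, held 4.88, 3.70 and 2.43 CPM in sham libraries and 24.9, 27.6 and 28.8 CPM in BCP libraries. Plcg2 (chr19:50045020-50173220), the phospholipase that makes the calcium-releasing messenger IP3 in myeloid cells and B cells, held 5.03, 6.98 and 4.80 CPM in sham libraries and 26.0, 27.4 and 30.6 CPM in BCP libraries. The log2FC was 2.90 ± 0.17 for Vav1 (adjusted p = 7.41e-10) and 2.32 ± 0.14 for Plcg2 (adjusted p = 9.51e-11, edgeR).

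Inpp5d (chr9:94745217-94850771), the brake of the set, rose as well. It held 28.3, 27.7 and 20.6 CPM in sham libraries and 66.0, 84.6 and 80.0 CPM in BCP libraries. The log2FC was 1.59 ± 0.14 (95% confidence interval 1.27 to 1.92; adjusted p = 5.78e-05, edgeR), below that of 6 of the 8 other genes.

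Within the groups most of the 9 genes shared their lowest library, as did many of the genes called higher. The BCP library with replicate number 1 was the lowest of the 3 BCP libraries in 9 of 9 genes, and the sham library with replicate number 3 was the lowest sham library in 8 of 9, all but Syk. Over the 946 genes called higher, the same libraries were the lowest in 74.8% and 59.2%, and over all tested genes in 35.9% and 35.8%. The highest library differed among the 9 genes. Fgr and Plcg2 were highest in the sham library 2 and the others in the sham library 1. Inpp5d was highest in the BCP library 2 and the others in the BCP library 3. These values come from CPM, in which library size is already divided out. With any 1 of the 6 libraries left out, all 9 genes were still called higher.

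Per length, the order of the genes changed between the groups. On the authors' FPKM scale, Lyn (6.03 FPKM ± 0.552), Blnk (5.74 ± 0.629) and Inpp5d (5.10 ± 0.847) were the most abundant transcripts in sham libraries (SD, n = 3), and their ranges overlapped. Ptprc followed at 2.73 FPKM ± 0.611, without overlap with Inpp5d above or Syk below. The other 5 genes lay between 0.614 FPKM for Btk and 1.58 FPKM for Syk, and no neighbours among them were separated. In BCP libraries Lyn (30.6 FPKM ± 4.65) and Ptprc (30.01 ± 4.64) led and overlapped each other, and both lay above Blnk (16.1 ± 2.55) and Inpp5d (15.8 ± 2.10). Vav1 (10.8), Fgr (9.07) and Plcg2 (7.46) formed the next group, and Btk (5.45) and Syk (4.10) were last and overlapped. Thus Ptprc moved from the fourth place to a level not separated from the first, and Syk from the fifth place to the last.

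The 9 genes differed in the size of their response, without clean tiers. For each of the 36 pairs the log2 ratio of the 2 genes was taken per library and its change between the groups was compared over libraries. In 28 pairs the ratios of BCP and sham libraries did not overlap, each with p = 0.1 in an exact two-sided permutation test (adjusted p = 0.129 over 36 pairs), and 0.1 is the smallest p that 3 against 3 libraries allow, so no pair could pass 0.05. The same count was not taken for pairs of other genes. Ptprc rose more than each of the 8 others without overlap, by 0.37 on the log2 scale against Fgr up to 2.11 against Syk. Btk, Fgr and Vav1 were not separated from one another, with differences of 0.03 to 0.16. Plcg2 and Lyn differed by 0.02 and overlapped, and Vav1 overlapped with Plcg2 but not with Lyn. Inpp5d, Blnk and Syk overlapped with one another at differences of 0.12 to 0.28, and each of these 3 rose less than all 6 other genes without overlap.

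Relatives of the 9 genes that most tissues transcribe were mostly not called. Among the Src-family kinases, the broadly expressed Src (log2FC 0.16), Fyn (-0.01) and Yes1 (-0.08) were not called, while the lymphoid Lck (3.34 ± 0.27, adjusted p = 1.94e-08, edgeR) rose like Lyn and Fgr. Of the other Vav factors, Vav2 (-0.06) and Vav3 (0.01) were not called, and neither were Plcg1 (-0.10), the isoform of most tissues, and Inppl1 (-0.02), which encodes SHIP2. In the Tec family, Tec itself changed by 0.90 ± 0.19 (adjusted p = 0.00105, edgeR), which is under the fold threshold. Zap70, the T cell relative of Syk, rose by 1.77 ± 0.23 (adjusted p = 7.24e-06, edgeR), and Lcp2, the relative of Blnk that encodes SLP-76, by 2.10 ± 0.13 (adjusted p = 7.91e-08, edgeR).

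**Figure D2:**
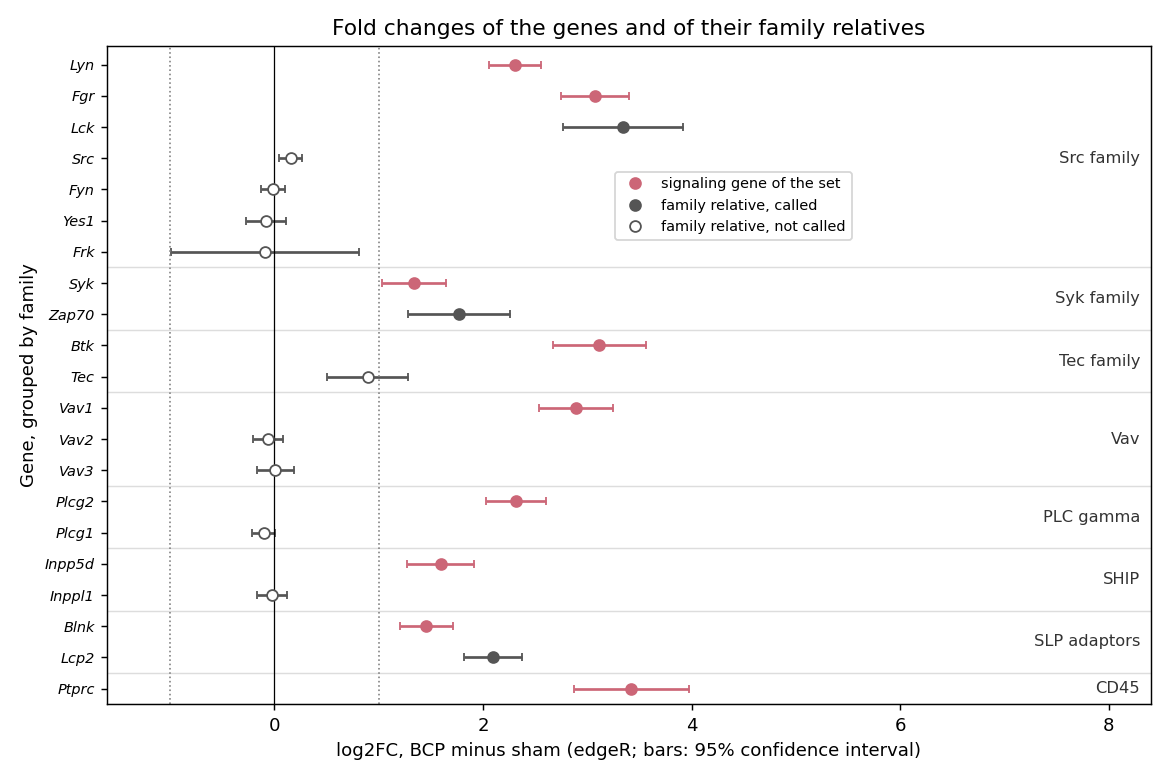
Log2FC (BCP minus sham, horizontal axis) of the 9 genes (red) and of their family relatives (grey), grouped by family; bars are 95% confidence intervals, filled points are called and open points are not, and dotted lines mark a log2FC of -1 and 1. The intervals of Src, Fyn, Yes1, Vav2, Vav3, Plcg1 and Inppl1 lie near 0, far below those of Lyn, Fgr, Vav1, Plcg2 and Inpp5d in the same families.

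The difference between a gene and its relative was itself compared in 13 pairs, which were chosen after the fold changes had been seen. In 12 of the 13 the per-library log2 ratios did not overlap between the groups (p = 0.1 each, exact two-sided permutation test, the smallest possible; adjusted p = 0.108). Because of this choice, the ratios restate the fold changes and are not a separate test of them. The ratio of Vav1 to Vav2 rose by 2.94, that of Plcg2 to Plcg1 by 2.41, that of Inpp5d to Inppl1 by 1.62, that of Lyn to Fyn by 2.30 and that of Btk to Tec by 2.14, all on the log2 scale. Blnk went the other way, since its ratio to Lcp2 fell by 0.65. The ratio of Syk to Zap70 was 2.12 ± 0.35 in sham and 1.71 ± 0.16 in BCP libraries (SD, n = 3) and overlapped (p = 0.2, exact permutation test).

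Within the Src, Tec, Vav and phospholipase C gamma families, the share of the summed FPKM that fell on the leukocyte form grew. Lyn made up 8.77% ± 0.623 of the Src family in sham and 24.8% ± 2.24 in BCP libraries, and Fgr 1.53% ± 0.382 and 7.34% ± 0.410. Lyn and Fgr together went from 10.3% ± 1.00 to 32.1% ± 2.53, while Fyn went from 37.5% to 21.4% of the family at a log2FC of -0.01. Vav1 went from 7.03% ± 2.18 to 36.5% ± 3.62 of the Vav factors, close to the 37.7% of Vav2. Btk went from 28.1% ± 4.64 to 56.2% ± 1.25 of the Tec family, above Tec, and Plcg2 from 3.84% ± 0.879 to 17.6% ± 1.94 of phospholipase C gamma, still below Plcg1. Syk was the exception, with 65.6% ± 5.92 and 58.1% ± 2.76 of its family and overlapping libraries.

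**Figure D3:**
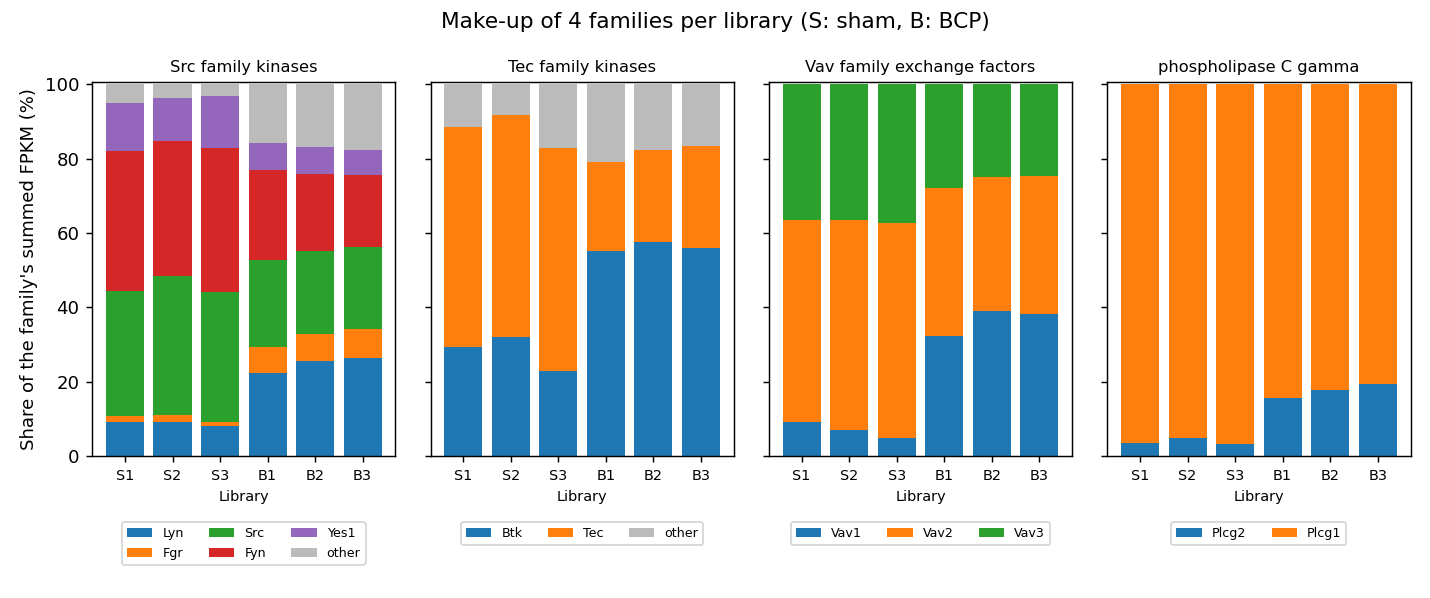
Share of each gene in the summed FPKM of its family (percent, stacked bars) in the 3 sham libraries (S1 to S3) and the 3 BCP libraries (B1 to B3) for 4 families, with the remaining genes of a family in grey. Lyn and Fgr together grow from 10.3% to 32.1% of the Src family, Btk from 28.1% to 56.2% of the Tec family, Vav1 from 7.03% to 36.5% of the Vav factors and Plcg2 from 3.84% to 17.6% of phospholipase C gamma.

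The partners of the 9 genes upstream and downstream were read from lists of pathway genes. Of 89 tested rows in these lists that were not among the 9 (Grb2 has 2 rows), 43 were called higher and 0 lower, with a median log2FC of 0.89. Some of the 43 passed the count filter only through the BCP libraries, so they could not have been called lower. Over all tested genes, 6.35% were called higher and 0.107% lower. Among receptors and adaptors that carry ITAMs or signal through an ITAM-bearing partner, 9 of 10 tested genes rose, including Tyrobp (2.20), Fcer1g (2.28), the Fc receptors Fcgr1a (2.32) and Fcgr3a (3.86) and the beta-glucan receptor Clec7a (6.77), while Trem2 changed by 0.52 (adjusted p = 0.14, edgeR). Their fitted median of 4.68 became 2.85 when the 4 T cell receptor chains Cd3d, Cd3e, Cd3g and Cd247, at 0 to 2 counts in each sham library, were set against a floor of 3 counts per library. These 4 chains and Clec7a, at 4 to 5 counts in each sham library, passed the count filter only through the BCP libraries. A lower call was therefore not possible for them. Among receptors with inhibitory motifs (ITIMs), which recruit phosphatases such as SHIP1, 6 of 8 rose, among them Fcgr2b (2.18), Cd33 (1.73), Lair1 (2.57) and Clec12a (1.10 to 23.2 CPM), with a median of 1.96.

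The other adaptors and the other negative regulators were raised in part. Of 16 tested rows of adaptors, Grb2 counted on both of its rows, 9 rose (median log2FC 1.05), with Fyb (3.27), Themis2 (2.96), Hcls1 (2.73), Lat2 (2.45) and Pik3ap1 (2.40) highest, whereas the general adaptor Gab2 was at 0.02. Of 16 negative regulators besides Inpp5d, 7 rose (median 0.68), among them the T cell genes Ptpn22 and Ubash3a, both with at most 3 counts in a sham library, and Ptpn6, which encodes SHP-1 and went from 9.22 CPM ± 1.09 to 73.6 CPM ± 10.6, while Csk, the kinase that CD45 counteracts, changed by 0.34 (adjusted p = 8.27e-05, edgeR). Ptpn22 and Ubash3a passed the count filter only through the BCP libraries. Of 27 genes downstream of phospholipase C gamma and PI3-kinase, 8 rose (median 0.16). Among these 8 were Rac2 (3.36), Pik3r5 (2.44), Was (2.29), Pik3cg (1.91), Card9 (1.53), Prkcd (1.28) and Pik3cd (1.03), while Pik3ca (-0.02), Akt1 (0.01) and Prkcb (-0.03) were not called.

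By the KEGG annotation in the deposited table, 7 of the 9 genes belonged to the B cell receptor signaling pathway, all but Ptprc and Fgr. Without them, 10 of its 55 tested genes were called higher, against 13 of 74 in Fc gamma receptor-mediated phagocytosis, 8 of 46 in Fc epsilon RI signaling, 28 of 73 in natural killer cell mediated cytotoxicity and 21 of 88 in T cell receptor signaling, with 0 called lower in each. These shares were between 17.4% and 38.4%, beside 6.35% of all tested genes called higher. Some genes in these shares, such as Ifng and Cd3e, passed the count filter only through the BCP libraries and could not have been called lower. The medians of these 5 sets without the 9 genes lay between -0.01 and 0.17.

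Markers of the cell types that carry these genes were set beside them, and beside the 6.35% of all tested genes that were called higher. In microglia, 9 of 16 tested markers rose and the summed level of the list went from 427 to 533 CPM in sham to 1182 to 1429 CPM in BCP libraries, with Siglech at 0 in all 6 libraries. Of the markers of homeostatic microglia, 2 of 8 tested rose. In B cells, the cell type after which Btk and Blnk are best known, 7 of 8 markers, among them Ms4a1, Cd79a, Cd79b and Pax5, had too few counts to be tested, with at most 5 in a sham library and at most 8 in a BCP library, and the remaining marker, Ebf1, changed by -0.12. All 7 tested T cell markers rose, and the summed level of the 11 listed ones was 6.79 to 7.75 CPM in sham and 48.4 to 57.0 CPM in BCP libraries. Most of the sham sum was Cd4 (5.09 CPM ± 0.624), and 3 of the 11 were at 0 in every sham library. All 5 tested natural killer cell markers rose as well, with sums over the 8 listed ones of 0.405 to 1.40 CPM and 36.4 to 59.0 CPM. In sham libraries, 4 of the 7 tested T cell markers and 3 of these 5 were at the floor of 3 counts per library. These 4 T cell markers and all 5 tested natural killer cell markers passed the count filter only through the BCP libraries. A lower call was therefore not possible for them. These values stand beside the result because Ptprc, Vav1, Plcg2 and Syk are also transcribed in those cells, and their part in the result was not tested.

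The remaining lists covered other blood cells and the tissue itself. Both tested neutrophil markers, S100a8 and Csf3r, rose, with the other 7 too low to test. S100a8 was at the floor of 3 counts in sham libraries and passed the count filter only through the BCP libraries. The sum over all 9 was 8.92 to 10.2 CPM in sham and 32.2 to 34.8 CPM in BCP libraries, nearly all of it Csf3r (9.01 CPM ± 0.977 and 28.4 CPM ± 4.12). None of the 6 mast cell markers in the table was tested, at no more than 1.18 CPM in sum. None of 6 tested monocyte and macrophage markers was called, with sums over the 7 in the table of 349 to 370 CPM and 433 to 489 CPM. All 3 red blood cell markers rose, from 24.4 to 28.0 CPM to 61.7 to 77.8 CPM, and 0 of 12 markers of spinal cord neurons and glia were called (median log2FC -0.17). The summed level of these 12 was 40774 to 45615 CPM in sham and 32045 to 36993 CPM in BCP libraries, without overlap. The astrocyte gene Aqp4 (1.53 ± 0.95, adjusted p = 0.342, edgeR) had 28568 counts in the BCP library 1 and 5037 and 4775 in the other BCP libraries. The part of these cells in the result was not tested.

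Relative to the microglia list, 6 of the 9 genes still differed between the groups without overlap. Neither this count nor the others in this paragraph were taken over all tested genes, so no background share stands beside them. The mean log2 CPM of the 16 tested markers was 3.99 ± 0.16 in sham and 5.32 ± 0.14 in BCP libraries (SD, n = 3), a difference of 1.33. After this mean was subtracted in each library, Ptprc (2.09), Fgr (1.72), Btk (1.68), Vav1 (1.56), Plcg2 (0.98) and Lyn (0.96) differed by these amounts, each on the log2 scale with p = 0.1 (exact two-sided permutation test, the smallest possible; adjusted p = 0.15 over 9 genes). The relative level of Inpp5d differed by 0.26 (p = 0.2), of Blnk by 0.10 (p = 0.4) and of Syk by -0.02 (p = 1, exact permutation test), and their libraries overlapped. Without the BCP library 1 all 9 genes differed without overlap, and without the sham library 2 it was 7 of 9. For Syk the gap without the BCP library 1 was narrow. Its relative level was -0.758 and -0.764 in the BCP libraries 2 and 3, against -0.792 in the highest sham library. Against the 8 tested homeostatic markers alone, all 9 lay higher without overlap, from 0.82 for Syk to 2.93 for Ptprc.

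**Figure D4:**
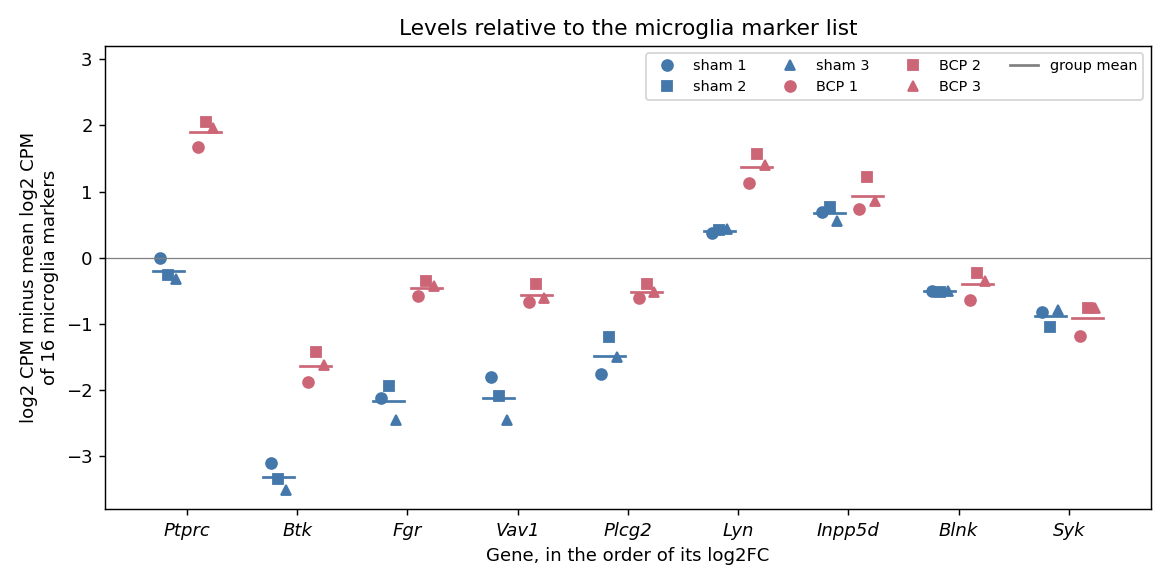
Log2 CPM of each of the 9 genes minus the mean log2 CPM of 16 microglia markers in the same library, for sham (blue) and BCP (red) libraries; lines are group means and marker shapes replicate numbers. The red points lie above the blue points for Ptprc, Btk, Fgr, Vav1, Plcg2 and Lyn, and the colours overlap for Inpp5d, Blnk and Syk.

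The genes whose profile over the 6 libraries was nearest to the mean profile of the 9 were Cybb, C1qb, Alpk3, Spi1 and Gsap. The root mean square difference of the centred log2 CPM was 0.034 for Cybb, the catalytic subunit of the phagocyte NADPH oxidase, 0.0405 for C1qb, a chain of complement C1q and one of the microglia markers, and 0.0627 for Alpk3. It was 0.0665 for Spi1, which encodes PU.1, and 0.0816 for Gsap. Spi1 held 7.63, 6.70 and 5.68 CPM in sham libraries and 33.1, 34.4 and 39.2 CPM in BCP libraries, and its log2FC of 2.42 ± 0.12 (adjusted p = 6.91e-12, edgeR) lay between those of Plcg2 and Vav1.

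Long non-coding RNA (lncRNA) transcripts overlapped 4 of the 9 genes. Of 7 such transcripts within 10 kb, all of which overlapped their gene, 4 had counts enough to be tested and all 4 were called higher, against 1.14% of 12157 tested lncRNAs. Ptprc held 3 of them, NONRATT008764.2 (log2FC 3.88 ± 0.33, adjusted p = 0.0042), MSTRG.8678.1 (3.37 ± 0.42, adjusted p = 0.0114) and MSTRG.8679.1 (3.21 ± 0.34, adjusted p = 0.00955, edgeR), and Lyn held MSTRG.23177.1 (2.55 ± 0.22, adjusted p = 0.00253, edgeR). NONRATT008764.2 had 31, 23 and 14 counts in sham and 243, 349 and 333 in BCP libraries, and MSTRG.23177.1 had 34, 23 and 25 in sham and 131, 175 and 133 in BCP libraries. The log2FC of the genes around them was 3.42 for Ptprc and 2.31 for Lyn, and without strand in the deposited tables reads of the gene and of the transcript inside it cannot be told apart.

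The calls of the 3 transcripts in Ptprc were less firm than that of the gene. Without the sham library 2, NONRATT008764.2 (adjusted p = 0.0577) and MSTRG.8678.1 (adjusted p = 0.0628) were no longer called by edgeR, which left 2 of 4. MSTRG.8679.1 was lost without the sham library 1 (adjusted p = 0.0652), and MSTRG.8678.1 without the BCP library 2 (adjusted p = 0.0558) or 3 (adjusted p = 0.0548, edgeR). The untested transcripts were NONRATT008765.2 in Ptprc, with 0 counts in each sham library and 6, 7 and 0 in BCP libraries, NONRATT014327.2 in Plcg2, with 1 to 3 and 8 to 10 counts, and NONRATT023671.2, whose span contains Fgr and reaches beyond it on both sides, with 1 count in each library.

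**Figure D5:**
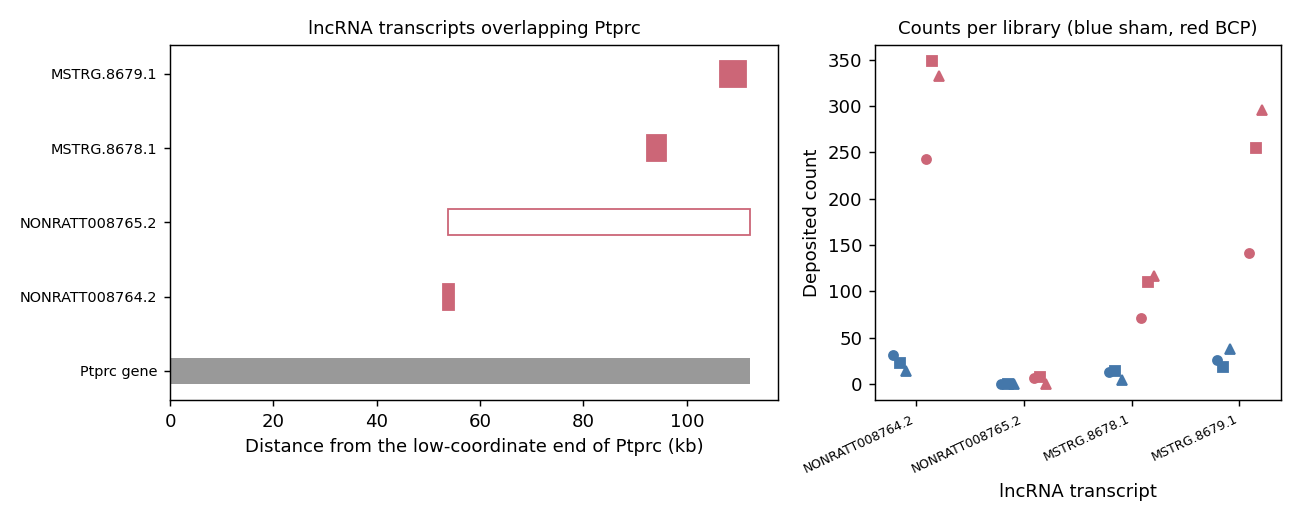
Left, the 4 lncRNA transcripts that overlap Ptprc, as spans from the low-coordinate end of the gene in kb, filled where called higher and open where not tested; right, their deposited counts in each sham (blue) and BCP (red) library, with circle, square and triangle for replicates 1, 2 and 3. In the 3 tested transcripts all BCP counts exceed all sham counts, the highest being 349 in NONRATT008764.2.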

How the data were processed

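Per the labels, strand-specific total RNA libraries were made after rRNA depletion. The authors filtered reads with Seqtk and mapped them to Rnor_6.0 with HISAT2 2.0.4, and StringTie 1.3.0 was used for expression. The counter and its use of strand are not given in the sources used here. The authors deposited raw counts and FPKM of 30957 genes and 22783 lncRNA transcripts, with other columns such as transcript length.

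From the counts, genes and lncRNAs were fitted separately with edgeR 4.0.16 in R 4.3.3 (filterByExpr, TMM, robust quasi-likelihood fit on condition), which tested 14908 genes and 12157 lncRNAs and left out 5737 genes with counts. Called means adjusted p under 0.05 and absolute log2FC over 1. CPM used TMM-scaled library sizes, log2 CPM a prior count of 2. Scripts were tested on simulated data. Alternatives included DESeq2 1.42.0. No 2 libraries of a group agreed within sampling noise (chi-square per degree of freedom 3.48 to 6.04 for genes).

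The 9 genes, the lists and the motifs were chosen with earlier results of these data known. Named were the 9 genes, genes of the lists, lncRNAs within 10 kb, and the 5 genes with the nearest profile. Some genes of the lists are counted but not reported by name here.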

Additional observations from a re-analysis of the deposited data

How the results depend on the processing

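All 9 genes stayed higher in BCP under each of the 15 alternatives, 135 fold changes in all, of which 134 also kept their call. The exception was Syk in the test against a fold change of 2 (log2FC 1.34, adjusted p = 0.0945). Over all alternatives the log2FC ranged from 2.66 to 3.14 for Vav1 and 1.19 to 1.48 for Syk. Counts over all features moved more. Genes called lower (16) became 10 with DESeq2, 37 without a filter, 6 with at least 10 counts in every library, 1805 without a fold threshold, 0 against a fold change of 2 and 16 to 33 with a library left out. Genes called higher (946) became 2352 without a fold threshold and 548 against a fold change of 2. LncRNAs called higher (139) became 217 in edgeR's exact test, 27 against a fold change of 2 and 47 to 112 with a library left out, and the 4 in Ptprc and Lyn became 2 to 4. The causes were not tested.

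Replicate numbers are shared by the groups. Deviations of same-numbered libraries correlated at -0.105, 0.0439 and -0.0353, and those of differently numbered libraries at -0.119 to 0.139. Same-numbered libraries thus did not stand out, but 3 libraries per group are too few to exclude a pairing. With the number as a replicate block all 9 genes were still called, Ptprc at an adjusted p of 0.019, while lncRNAs called higher went to 43 and those in Ptprc and Lyn to 2.

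CPM per reference length in place of FPKM was not run, because the gene table gives no length. Depth limits Btk most, at 16 to 25 counts per sham library, and with 3 libraries per group no exact permutation test can go below 0.1.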
